A study of Mus musculus with 12 samples.

Results

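The genes described here are 38 genes of DNA replication and S phase. They comprise origin licensing factors (Orc1, Orc6, Cdc6, Cdt1 and Mcm2 to Mcm7), helicase and firing factors (Mcm10, Cdc45 and Gins1 to Gins4), the sliding clamp, clamp loaders and polymerases (Pcna, Rfc3, Rfc4, Rfc5, Pola1, Pold1, Pole and Prim1) and enzymes that finish lagging strand fragments (Fen1 and Lig1). The others supply nucleotides (Rrm1, Rrm2, Tyms and Tk1), regulate S phase entry (Ccne1, Ccne2, E2f1 and E2f2), assemble chromatin or handle histone messages (Chaf1a, Chaf1b and Slbp) or protect the fork (Tipin). A gene was read from the probe sets annotated to exactly its 1 symbol and, of several, from the one with the highest mean log2(signal + 16) over all arrays. This gave a value for 37 of the 38 genes, out of 18193 genes on the arrays, and all 37 passed the filter on dim probe sets that 11806 genes passed. Chaf1a, the large subunit of chromatin assembly factor 1, had no such probe set and was not analysed here.

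Expression was measured on 12 Affymetrix arrays of mouse embryonic stem (ES) cells, with 3 arrays in each of 4 groups that the labels give as biological replicates. The cells came from strain 129P2/OlaHsd (E14, Ainv15) and carried Neurog1, a proneural transcription factor gene, under tetracycline-inducible control. In the 3 induced groups doxycycline was present at 1 ug/ml for 24, 48 or 72 h, and the remaining group was the uninduced maintenance culture at 0 h. Serum, LIF, puromycin and G418 were in the medium of every group. No uninduced cells were taken at later times, so effects of Neurog1, of doxycycline and of time cannot be told apart.

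Eukaryotic replication origins are licensed in G1, when the origin recognition complex, Cdc6 and Cdt1 load the Mcm2 to Mcm7 ring onto DNA, and they fire in S phase, when Cdc45 and the GINS complex turn that ring into a running helicase. Polymerase alpha and its primase start each strand, the replication factor C loader places the PCNA clamp, and polymerases delta and epsilon extend the strands. Transcription of many of these genes is driven by E2F factors at the G1/S transition. Mouse ES cells have a short G1 phase and spend much of their cycle in S phase.

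The arrays bore out the labels for the transgene and for the starting cells. Neurog1 had a signal of 465 to 1152 on the 9 induced arrays, against 4.53 to 18.7 on the uninduced arrays. The summed signal of 8 ES cell markers was 20949 to 24665 at 24 h, 5692 to 8702 at 48 h and 4994 to 5459 at 72 h, against 41462 to 47789 in uninduced cells. For 10 neuronal markers it was 2037 to 5316 at 24 h, 11451 to 17314 at 48 h and 29566 to 30213 at 72 h, against 4120 to 4835 in uninduced cells. Of the markers of other cells, 2 of 8 fibroblast and feeder genes, 3 of 5 endoderm genes, 0 of 5 trophoblast genes and 0 of 3 mesoderm genes passed the filter on dim probe sets, and these lists summed to at most 317, 433, 103 and 74.4 on any array. The endoderm list summed to 41.8 to 98.8 in uninduced cells and to 168 to 433 at 72 h, while the fibroblast, trophoblast and mesoderm lists overlapped between these groups. The ES cell, neuronal and endoderm marker levels moved over the same times as the replication genes, and their part in the results was not tested. In bulk RNA, fewer cells of a type and less RNA per cell cannot be told apart.

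One array stood apart, replicate 1 of the 24 h group. Across the tested genes it correlated at 0.787 and 0.812 with the other 24 h arrays, while every other pair of arrays within a group reached at least 0.961. On it 1266 genes were at least 2-fold below, and 371 at least 2-fold above, every other array. For Pcx the 3′ probes gave 6.81 times the signal of the 5′ probes, against 1.22 to 2.80 times elsewhere. The same ratio was not unusual on this array for Gapdh (0.862, against 0.658 to 0.864 elsewhere) or Actb (1.42, against 1.34 to 1.54). Counts of calls at 24 h are given with and without this array. Because all groups share 1 estimate of the spread, it also touched the calls at 48 h and 72 h.

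After 48 h and 72 h of induction most of the replication genes were lower than in uninduced cells, and after 24 h few were. At 24 h, 2 of 37 fell, where 3.18% of all genes tested fell. At 48 h, 22 of 37 fell, where 14% of all genes tested fell, and at 72 h, 26 of 37 fell, where 18.6% did. A fall here is a limma test with a Benjamini-Hochberg adjusted p under 0.05 over all 11806 genes, with 3 arrays against 3. None of the 37 rose at any of these times by that test, where 8.12% of all genes tested rose at 24 h, 22.6% at 48 h and 25.3% at 72 h, with 1 higher at an unadjusted p under 0.05 at 24 h and 0 at 48 h and at 72 h.

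Set against uninduced cells, the 37 genes had a median log2 difference of -0.18 after 24 h, -0.84 after 48 h and -1.03 after 72 h. All genes tested had medians of 0.10, 0.12 and 0.09 at these times. The difference was below 0 for 27 of the 37 genes at 24 h and for 35 at 48 h and at 72 h. Of all 11806 genes tested it was below 0 for 5062 at 24 h, 5227 at 48 h and 5493 at 72 h. All 3 induced arrays lay below all 3 uninduced arrays for 11 genes at 24 h, 30 at 48 h and 30 at 72 h, against 9.41%, 26.9% and 29.6% of all genes tested. Without replicate 1 at 24 h, the remaining 24 h arrays lay below all uninduced arrays for 22 genes, against 20.8% of all genes tested. The 22 genes that had fallen at 48 h were all among the 26 at 72 h, and the other 4 were Rfc4, Pold1, Fen1 and Tk1. Both comparisons used the same uninduced arrays.

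**Figure D1:**
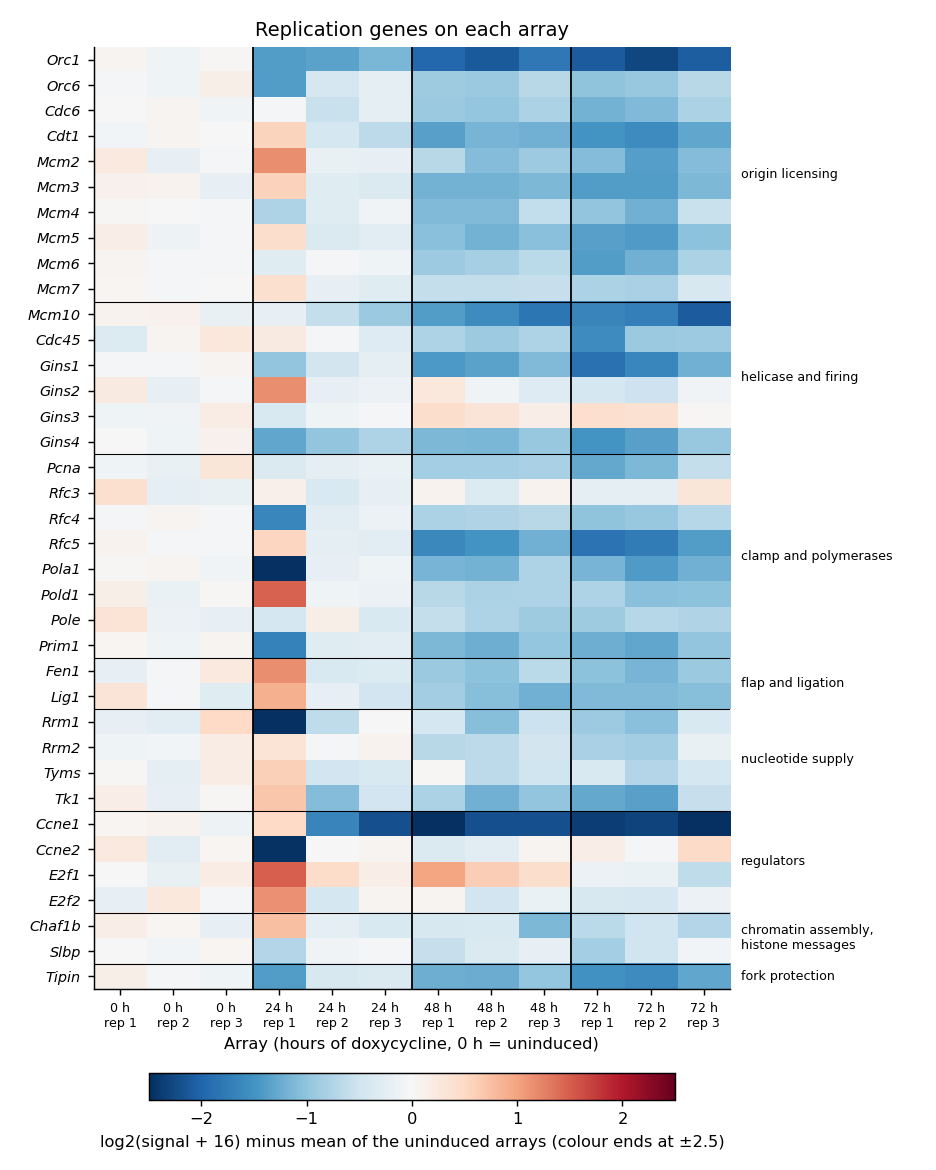
Each row is 1 of the 37 replication genes, grouped by role, and each column 1 of the 12 arrays, ordered by hours of doxycycline. Colour gives log2(signal + 16) minus the mean of the uninduced arrays, blue for lower and red for higher. Most rows are blue on all 48 h and 72 h arrays, and replicate 1 at 24 h differs from its neighbours in both directions.

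**Figure D2:**
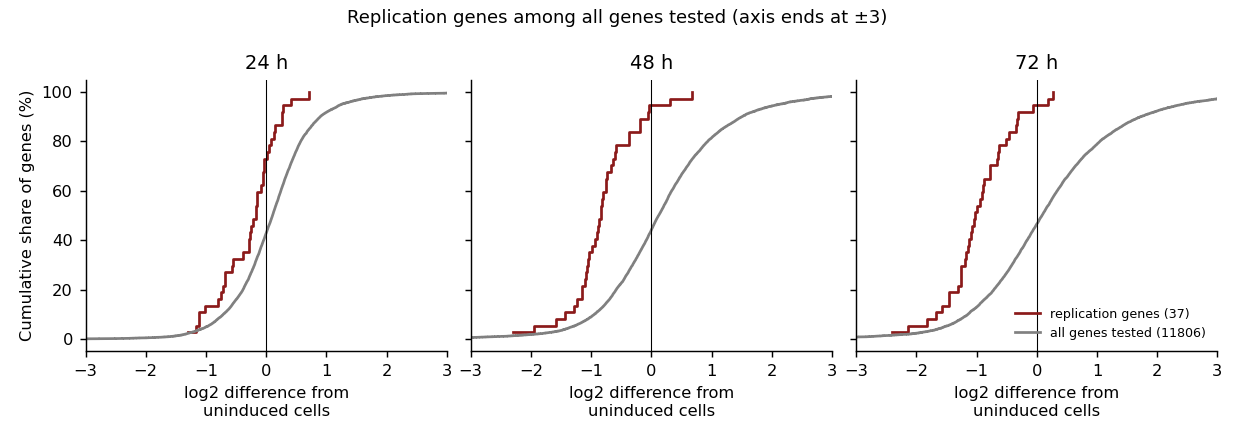
Cumulative share (%) of the 37 replication genes and of all 11806 genes tested against the log2 difference from uninduced cells at 24, 48 and 72 h, drawn between -3 and 3. At 48 h and 72 h the replication genes lie to the left of all genes, with medians of -0.84 and -1.03 against 0.12 and 0.09.

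A loose form of the motif that E2F factors bind was looked for in the RefSeq promoters of these genes (assembly GRCm38.p6), from 250 bases before to 50 bases after the annotated start. The motif searched was TTTNNCGC, which reads GCGNNAAA on the other strand, and matches could overlap. N stands for any base, so a match need not be a sequence that E2F factors are known to bind. Of the 37 genes on the arrays 30 had a promoter entry, and 14 of those (46.7%) held the motif. It was held by 967 of 9572 tested genes with an entry (10.1%), by 1602 of all 27025 genes with an entry (5.93%), by 21 of 59 other replication genes (35.6%) and by 3 of 28 mitosis genes (10.7%). All 10 licensing genes fell at 48 h and at 72 h, among them Orc6 and Mcm2, which did not hold the motif. Matches upstream of the start in Mcm7 and Pola1 are not printed. The stretches below show it upstream of the start in 4 licensing genes and in 2 genes that did not pass the test at any time. They run 5′ to 3′ on the strand of the gene, and the capitals mark the motif, in Mcm5 and Mcm6 a match on each strand that overlap.
Orc1, chr4:108579397-108579453, plus strand: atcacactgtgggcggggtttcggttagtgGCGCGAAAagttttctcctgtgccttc
Cdc6, chr11:98907983-98908050, plus strand: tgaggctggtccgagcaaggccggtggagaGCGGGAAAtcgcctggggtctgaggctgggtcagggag
Mcm5, chr8:75109326-75109393, plus strand: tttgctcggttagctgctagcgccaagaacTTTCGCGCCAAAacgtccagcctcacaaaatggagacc
Mcm6, chr1:128359778-128359845, minus strand: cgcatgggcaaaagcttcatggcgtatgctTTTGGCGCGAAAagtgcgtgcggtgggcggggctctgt
Rfc3, chr5:151651209-151651248, minus strand: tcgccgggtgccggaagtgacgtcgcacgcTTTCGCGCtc
Gins3, chr8:95633488-95633555, plus strand: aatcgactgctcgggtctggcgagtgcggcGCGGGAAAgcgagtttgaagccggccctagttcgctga

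Genes with and without the motif had similar medians, which were not tested. The median log2 difference at 48 h was -0.85 for the 14 genes with the motif and -0.84 for the 16 without it, and at 72 h it was -1.06 with and -1.02 without. Ccne1, Mcm10 and Rfc5, which had large falls, do not hold these letters in this window. A match describes the sequence and is not a shown binding site.

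All 10 licensing genes fell at 48 h and at 72 h, and Orc1 was the lowest of them relative to uninduced cells. The 48 h call of Mcm2 was near the threshold (limma adjusted p = 0.0439) and held in 11 of 23 alternative settings, and that of Orc6 held in 17. Orc1 encodes the largest subunit of the origin recognition complex. Its signal was 630, 558 and 618 at 0 h, 217, 229 and 264 at 24 h, 142, 128 and 162 at 48 h and 130, 111 and 131 at 72 h. Each of the 9 induced arrays lay below each uninduced array, replicate 1 at 24 h included. The log2 difference was -1.29 ± 0.20 (SE) at 24 h, -1.95 ± 0.20 at 48 h and -2.14 ± 0.20 at 72 h, with limma adjusted p of 0.00132, 1.3e-05 and 3.85e-06. Its mean signal at 72 h was 20.6% of that in uninduced cells. A second, dimmer probe set of Orc1, above its array's median on all 12 arrays, gave -0.08 at 24 h, -0.57 at 48 h and -0.55 at 72 h, so it hardly showed the fall at 24 h and showed a smaller one later.

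The 6 genes of the Mcm2 to Mcm7 ring all fell at 48 h and at 72 h. On the probe sets used, their log2 differences from uninduced cells ran from -1.16 (Mcm3) to -0.60 (Mcm7) at 48 h. At 72 h they ran from -1.31 (Mcm3) to -0.67 (Mcm7). In mean signal these genes stood at 44.1% to 66.1% of uninduced cells at 48 h and at 39.9% to 63.4% at 72 h. Further probe sets above their array's median on at least 3 arrays spread wider. They gave -1.59 to -0.08 at 48 h and -1.76 to -0.18 at 72 h, with both ends on probe sets of Mcm3. Mcm5, a ring subunit whose promoter is printed above, had signals of 5171, 4248 and 4488 at 0 h, 6254, 3596 and 3856 at 24 h, 2235, 2041 and 2220 at 48 h and 1797, 1729 and 2264 at 72 h. The 48 h and 72 h arrays of Mcm5 lay below all uninduced arrays, and the 24 h arrays did not, because replicate 1 was the highest of all 12. Its limma log2 difference was -1.09 ± 0.21 at 48 h (adjusted p = 0.00162) and -1.26 ± 0.21 at 72 h (adjusted p = 0.00043).

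Cdt1, which loads the ring together with Cdc6, averaged 1533 ± 103 at 48 h and 1328 ± 128 at 72 h, against 3650 ± 166 in uninduced cells (signal, SD, n = 3 each). It fell by 1.24 at 48 h and 1.45 at 72 h on the log2 scale. Cdc6, the ATPase of that step, averaged 368 ± 25 at 48 h and 338 ± 54.3 at 72 h, against 701 ± 36.1 in uninduced cells. The SDs of both genes were small beside the gap, and the limma adjusted p at 72 h was 0.000671 for Cdt1 and 0.00181 for Cdc6. Orc6, the smallest subunit of the origin recognition complex, fell by 0.83 at 48 h and 0.88 at 72 h on the log2 scale, with limma adjusted p of 0.0317 and 0.0206.

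Of the 6 helicase and firing genes, 4 fell at both 48 h and 72 h, and they were Mcm10, Gins1, Gins4 and Cdc45. Mcm10, which helps to open the loaded helicase, had signals of 858, 872 and 706 at 0 h, 700, 533 and 415 at 24 h, 295, 263 and 220 at 48 h and 248, 235 and 178 at 72 h. Every induced array was below every uninduced array. The log2 difference was -1.59 ± 0.24 at 48 h and -1.81 ± 0.24 at 72 h, with limma adjusted p of 0.000297 and 7.81e-05. A second bright probe set of Mcm10 gave -1.22 at 48 h and -1.19 at 72 h.

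The 4 GINS subunits, which form 1 complex in the active helicase, differed in whether they passed the test. Gins4 had signals of 465, 578 and 676 at 24 h, 522, 521 and 597 at 48 h and 404, 445 and 595 at 72 h, against 1160, 1079 and 1254 in uninduced cells. Its 24 h signals already overlapped those of the later times, and it was, besides Orc1, the only one of the 37 genes that fell at 24 h, by 1.02 on the log2 scale (SE 0.22, limma adjusted p = 0.0101). Gins1 averaged 648 ± 171 at 24 h, 375 ± 49.3 at 48 h and 312 ± 79.6 at 72 h, against 938 ± 45.5 in uninduced cells, and its fall at 72 h was by 1.57 on the log2 scale (limma adjusted p = 0.0003).

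Gins3 had signals of 116, 118 and 145 at 0 h, 93.2, 115 and 122 at 24 h, 176, 162 and 143 at 48 h and 172, 169 and 128 at 72 h. The groups overlapped at 48 h and at 72 h, and its log2 difference of 0.31 ± 0.21 at 48 h and 0.27 ± 0.21 at 72 h did not pass (limma adjusted p = 0.276 and 0.317). Gins2 averaged 364 ± 79.5 at 48 h and 290 ± 51.7 at 72 h, against 373 ± 59.9 in uninduced cells, and did not pass either (limma adjusted p = 0.937 and 0.437). The second bright probe set of Gins2 gave -0.41 at 48 h and -0.71 at 72 h, with signals of 215 to 272 at 48 h and 147 to 255 at 72 h that lay below the 288 to 403 of uninduced cells. A difference between the subunits themselves was not tested.

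**Figure D3:**
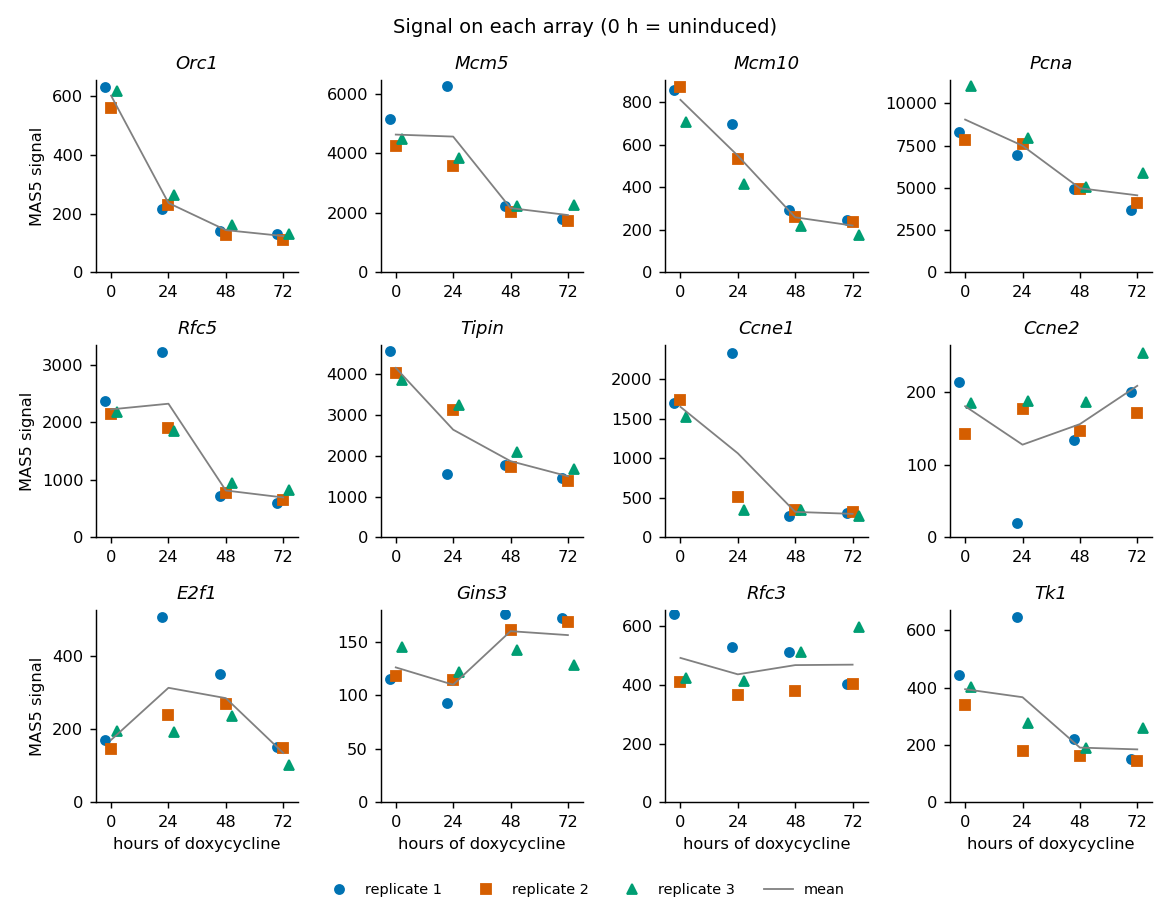
Signal of 12 of the replication genes on each array against hours of doxycycline (0 h is uninduced), with 1 marker per replicate and a line through the group means, and a linear axis from 0 in each panel. Orc1, Mcm10, Rfc5, Tipin and Ccne1 show their 48 h and 72 h arrays below all uninduced arrays, while Ccne2, Gins3 and Rfc3 overlap with uninduced cells at 72 h.

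Among the clamp, loader and polymerase genes, 4 of 8 fell at 48 h (Pcna, Rfc5, Pole and Prim1) and 6 of 8 at 72 h, with Rfc4 and Pold1 added. Rfc5, a small subunit of the clamp loader, had signals of 2367, 2138 and 2177 at 0 h, 3222, 1907 and 1848 at 24 h, 715, 780 and 954 at 48 h and 603, 652 and 830 at 72 h. On replicates 2 and 3 at 24 h Rfc5 was just below the uninduced arrays, and at 48 h the highest array was less than the lowest 24 h array. Its log2 difference was -1.44 ± 0.24 at 48 h and -1.67 ± 0.24 at 72 h (limma adjusted p = 0.000537 and 0.000128). At 48 h against 24 h its difference was -1.45 ± 0.24 (limma adjusted p = 0.00128), the lowest value of the 37 genes in that comparison.

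Pcna, the sliding clamp, had signals of 8289, 7817 and 11039 at 0 h, 6949, 7575 and 7981 at 24 h, 4943, 4942 and 5073 at 48 h and 3691, 4119 and 5888 at 72 h. Its 48 h and 72 h arrays lay below all uninduced arrays, with a log2 difference of -0.84 ± 0.19 at 48 h (limma adjusted p = 0.0036) and -0.997 ± 0.19 at 72 h (limma adjusted p = 0.000882). Prim1, the catalytic primase subunit, averaged 653 ± 62.0 at 48 h and 624 ± 74.7 at 72 h, against 1417 ± 85.5 in uninduced cells, and Pole, the catalytic subunit of polymerase epsilon, averaged 273 ± 29.0 and 267 ± 17.8 at those times, against 478 ± 107. Pold1, the catalytic subunit of polymerase delta, averaged 339 ± 38.1 at 72 h, against 669 ± 76.2 in uninduced cells.

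Of the clamp loader subunits, Rfc5 and Rfc4 fell at 72 h and Rfc3 did not pass. Rfc3 had signals of 642, 409 and 424 at 0 h, 528, 366 and 413 at 24 h, 511, 378 and 512 at 48 h and 404, 404 and 597 at 72 h. All 4 groups overlapped, and the log2 difference was -0.06 ± 0.26 at 48 h and at 72 h, which did not pass (limma adjusted p = 0.895 and 0.871). The second bright probe set of Rfc3 gave -0.13 at 48 h and -0.23 at 72 h. Rfc4 averaged 759 ± 85.6 at 72 h, against 1412 ± 67.8 in uninduced cells, and fell by 0.89 on the log2 scale (limma adjusted p = 0.0389).

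Pola1, the catalytic subunit of polymerase alpha, had calls that moved with the 24 h array that stood apart. Its signals were 885, 897 and 804 at 0 h, 82.2, 746 and 794 at 24 h, 377, 370 and 495 at 48 h and 378, 314 and 364 at 72 h. The 48 h and 72 h arrays lay below all uninduced arrays and close to each other. The limma SE with all 12 arrays was 0.60, and neither -1.04 at 48 h (adjusted p = 0.195) nor -1.26 at 72 h (adjusted p = 0.106) passed. Without replicate 1 at 24 h the SE was 0.14, and both passed with limma adjusted p of 3.98e-05 at 48 h and 5.61e-06 at 72 h.

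Lig1, the ligase that seals lagging strand fragments, fell at both times, and Fen1, the nuclease that trims their flaps, fell at 72 h. Lig1 had signals of 1424, 1117 and 916 at 0 h, 2126, 986 and 811 at 24 h, 610, 535 and 482 at 48 h and 517, 519 and 530 at 72 h. All 48 h and 72 h arrays were below all uninduced arrays, with a log2 difference of -1.05 ± 0.31 at 48 h and -1.10 ± 0.31 at 72 h (limma adjusted p = 0.0193 and 0.0126). Fen1 averaged 630 ± 81.5 at 48 h and 562 ± 47.6 at 72 h, against 1176 ± 196 in uninduced cells, with limma adjusted p of 0.0658 at 48 h and 0.0288 at 72 h.

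Of the 4 genes of nucleotide supply, Rrm2 fell at 48 h and Rrm2 and Tk1 at 72 h. Rrm2, the S phase regulated subunit of ribonucleotide reductase, averaged 2688 ± 246 at 48 h and 2713 ± 746 at 72 h, against 4104 ± 480 in uninduced cells. Tk1, the cytosolic thymidine kinase, had signals of 443, 338 and 402 at 0 h, 646, 177 and 275 at 24 h, 220, 163 and 190 at 48 h and 152, 144 and 258 at 72 h. The 48 h and 72 h arrays of Tk1 lay below all uninduced arrays. It fell by 1.07 on the log2 scale at 72 h (SE 0.38, limma adjusted p = 0.0377), and its difference of -0.99 ± 0.38 at 48 h did not pass (limma adjusted p = 0.0599), but did with the replicate number as a block (limma adjusted p = 0.0359).

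Rrm1, the large reductase subunit, averaged 934 ± 208 at 48 h and 873 ± 223 at 72 h, against 1528 ± 492 in uninduced cells, and did not pass at either time (limma adjusted p = 0.343 and 0.256), but did without replicate 1 at 24 h (0.0327 and 0.0151). Tyms, thymidylate synthase, was dim on the probe set used, above its array's median on 7 of 12 arrays, with signals of 16.9 to 26.4 at 72 h, against 31.1 to 46.1 in uninduced cells. Its log2 difference of -0.52 ± 0.30 at 72 h did not pass (limma adjusted p = 0.176), and at this brightness the array limits what can be said of it.

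Of the 4 regulators of S phase entry, Ccne1 fell and the other 3 did not pass at 48 h or 72 h. Ccne1 encodes cyclin E1, which activates Cdk2 at the G1/S transition. Its signals were 1690, 1737 and 1513 at 0 h, 2328, 509 and 346 at 24 h, 274, 346 and 346 at 48 h and 307, 316 and 268 at 72 h. On replicates 2 and 3 at 24 h Ccne1 was already far below the uninduced arrays, while replicate 1 was above each of them. The log2 difference was -2.30 ± 0.50 at 48 h and -2.41 ± 0.50 at 72 h, the lowest of the 37 genes at both times, with limma adjusted p of 0.00334 and 0.0019. A second bright probe set of Ccne1 gave -1.87 at 48 h and -2.10 at 72 h.

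Ccne2, which encodes cyclin E2, had signals of 214, 143 and 186 at 0 h, 19.3, 177 and 188 at 24 h, 135, 147 and 187 at 48 h and 201, 172 and 254 at 72 h. Apart from replicate 1 at 24 h, its arrays overlapped between all groups. Its log2 difference was -0.19 ± 0.52 at 48 h and 0.19 ± 0.52 at 72 h (limma adjusted p = 0.814 and 0.791). Without the array that stood apart, these differences had an SE of 0.19 and still did not pass (limma adjusted p = 0.425 and 0.399).

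E2f1, an activating E2F factor, was higher at 48 h than in uninduced cells on every array. Its signals were 171, 147 and 194 at 0 h, 506, 239 and 193 at 24 h, 351, 268 and 235 at 48 h and 153, 149 and 103 at 72 h. All 48 h arrays were above all uninduced arrays and above all 72 h arrays, which 35.4% of all genes tested showed upwards for 48 h against uninduced cells and 12.6% showed downwards for 72 h against 48 h. Against uninduced cells its log2 difference was 0.68 ± 0.32 at 48 h (limma adjusted p = 0.119) and -0.31 ± 0.32 at 72 h (limma adjusted p = 0.458). Without replicate 1 at 24 h E2f1 rose at 48 h by 0.68 ± 0.20 (limma adjusted p = 0.00964), and from 48 h to 72 h it fell by 0.99 on the log2 scale (SE 0.20, limma adjusted p = 0.0142).

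Both further probe sets of E2f1, 1 bright and 1 dim, also read higher at 48 h than in uninduced cells, by 0.77 and 0.69 on the log2 scale. At 72 h they gave 0.11 and 0.37, against -0.31 on the probe set used, so the sign at 72 h depends on the probe set. E2f2, a second activating E2F factor, averaged 46.1 ± 11.8 at 48 h and 40.1 ± 6.32 at 72 h, against 54.6 ± 11.8 in uninduced cells, and did not pass (limma adjusted p = 0.703 and 0.469).

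Neither measured gene of chromatin assembly and histone messages passed at 48 h or 72 h, also at an unadjusted p under 0.05 in limma. Chaf1b, the middle subunit of chromatin assembly factor 1, had signals of 427, 394 and 327 at 0 h, 654, 319 and 287 at 24 h, 283, 290 and 167 at 48 h and 234, 263 and 221 at 72 h. Its 48 h and 72 h arrays lay below all uninduced arrays, with -0.63 ± 0.31 at 48 h and -0.64 ± 0.31 at 72 h. Without the array that stood apart it passed at both times (limma adjusted p = 0.0137 and 0.0118). Slbp, which binds the stem-loop of histone messages, averaged 1403 ± 186 at 48 h and 1349 ± 373 at 72 h, against 1823 ± 72.1 in uninduced cells.

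Tipin, the partner of Timeless in the fork protection complex, fell at 48 h and at 72 h. Its signals were 4572, 4048 and 3865 at 0 h, 1564, 3125 and 3247 at 24 h, 1770, 1741 and 2108 at 48 h and 1450, 1382 and 1674 at 72 h. Every induced array was below every uninduced array, and the 72 h arrays were below the 48 h arrays. The log2 difference was -1.15 ± 0.25 at 48 h and -1.46 ± 0.25 at 72 h (limma adjusted p = 0.0034 and 0.000492).

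**Figure D4:**
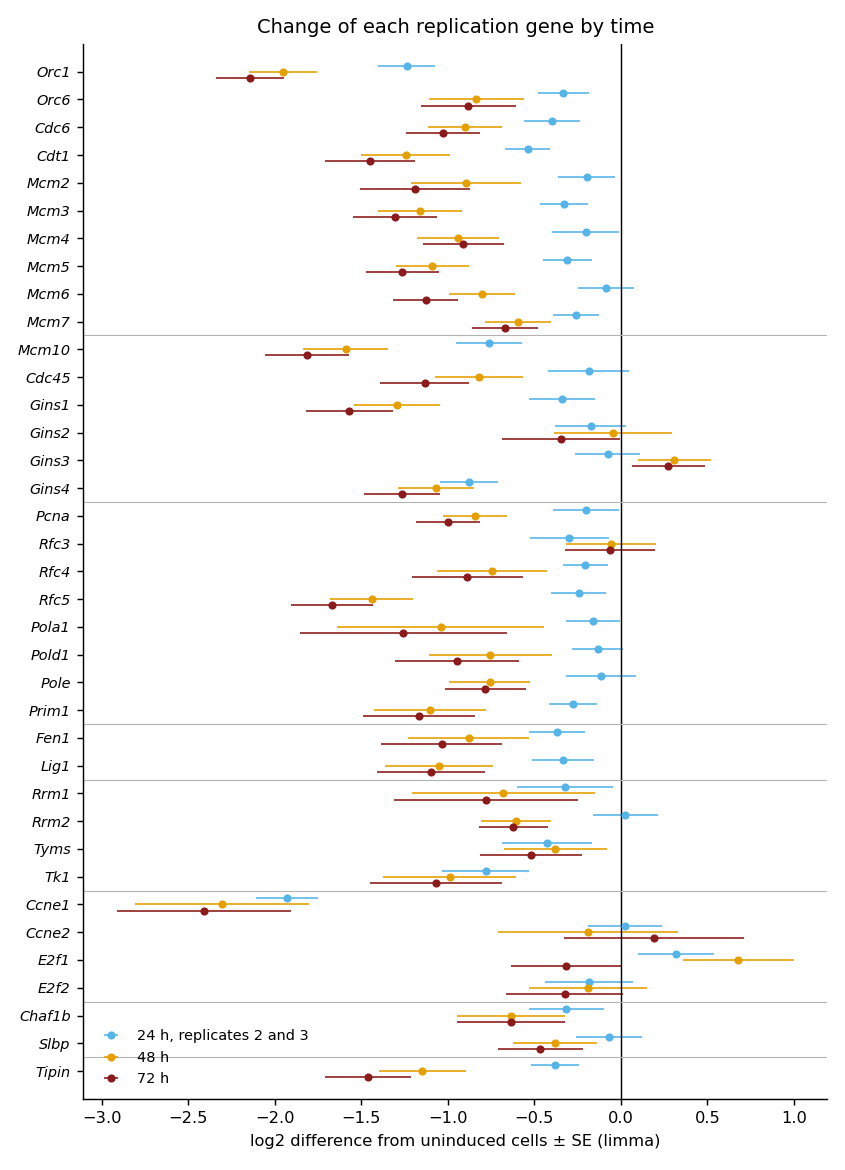
Log2 difference from uninduced cells ± SE (limma) of each of the 37 replication genes, from top to bottom by role, at 24 h from replicates 2 and 3 and at 48 h and 72 h from all arrays. The 48 h and 72 h points lie close together for most genes, and right of 0 lie both points of Gins3, the 48 h point of E2f1 and the 72 h point of Ccne2.

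Most of the change seen at 72 h was present at 48 h. Over the 26 genes that fell at 72 h, the log2 difference at 48 h was a median of 87.0% of that at 72 h, with a range from 71.1% (Mcm6) to 103% (Mcm4). On replicates 2 and 3 at 24 h it was a median of 24.9%, with a range from -4.26% (Rrm2) to 80.1% (Ccne1). Mean signal stood at a median of 50.4% of uninduced cells at 48 h and 44.7% at 72 h over the same genes. These shares describe genes chosen by their change at 72 h, and the uninduced arrays enter each of them.

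For 48 h against 24 h, 12 of the 37 genes were lower and 0 higher by the limma test, with 1 higher at an unadjusted p under 0.05, where 7.55% of all genes tested were lower and 10.3% higher. The 12 were Orc1, Cdt1, Mcm2, Mcm3, Mcm5, Mcm6, Mcm10, Pcna, Rfc5, Pold1, Lig1 and Rrm2, of which 6 are licensing genes. The median log2 difference was -0.59, against 0.02 over all genes tested. For 72 h against 48 h, 0 of the 37 passed limma in either direction and 1, E2f1, at an unadjusted p under 0.05, where 0.152% of all genes tested were lower and 0.644% higher. In that comparison 35 of 37 differences were below 0, against 6416 of all 11806 genes tested, and Mcm4 (0.03) and Ccne2 (0.38) were the others. The median was -0.14, against -0.03 over all genes tested.

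Without replicate 1 at 24 h, 6 of the 37 genes fell at 24 h, where 8.94% of all genes tested fell. Beside Orc1 (-1.24) and Gins4 (-0.88), these were Ccne1 (-1.93, limma adjusted p = 1.35e-05), Tk1 (-0.78), Mcm10 (-0.76) and Cdt1 (-0.54). The 24 h difference was then below 0 for 34 of 37 genes, with a median of -0.28, against 0.08 over all genes tested. At the other comparisons without this array 29 genes were lower and 1 higher at 48 h (24% of all genes tested lower and 32.9% higher), 30 lower at 72 h (28.1%), 22 lower for 48 h against 24 h (11.3%) and 1 lower for 72 h against 48 h (1.69%). The genes added at 48 h were Rfc4, Pola1, Pold1, Fen1, Rrm1, Tk1 and Chaf1b as lower and E2f1 as higher, and those added at 72 h were Pola1, Rrm1, Chaf1b and Slbp.

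With the replicate number as a block, 2 genes were lower at 24 h (3.91% of all genes tested), 23 at 48 h (15.3%), 26 at 72 h (20.4%), 13 for 48 h against 24 h (9.25%) and 0 for 72 h against 48 h (0.186%).

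On the 24 h array that stood apart the replication genes scattered rather than shifted. Against the mean of replicates 2 and 3 at 24 h, 12 genes were at least 1 log2 unit higher on it, 7 at least 1 lower and 18 within 1, over a range from -2.999 (Pola1) to 2.43 (Ccne1). Between replicates 2 and 3 the median gap was 0.13 and the largest 0.61. The mean log2 difference of the 37 genes from uninduced cells was -0.19 on replicate 1, -0.36 on replicate 2 and -0.32 on replicate 3. For 33 mitosis genes it was -0.93 on replicate 1, -0.04 on replicate 2 and -0.06 on replicate 3, and for all genes tested it was 0.07, 0.16 and 0.11 on these arrays.

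**Figure D5:**
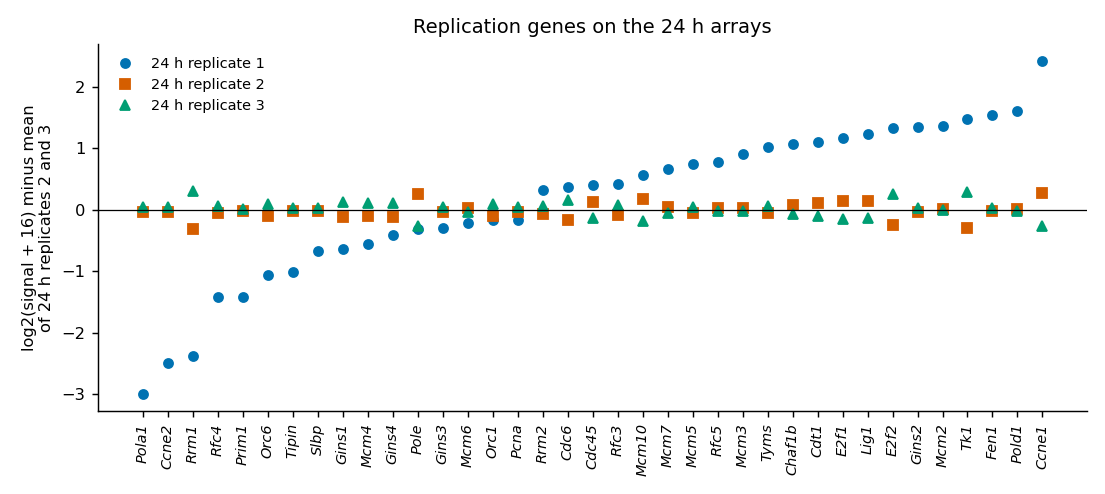
Log2(signal + 16) of the 37 replication genes on each 24 h array, minus the mean of replicates 2 and 3, ordered by the value on replicate 1. Replicates 2 and 3 stay close to 0, with a largest gap of 0.61, and replicate 1 runs from -2.999 (Pola1) to 2.43 (Ccne1).

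Other genes of the same roles changed in both directions. Of 73 further replication genes, chosen from general knowledge, 71 were tested, and 25 fell and 5 rose at 48 h, where 14% of all genes tested fell and 22.6% rose. At 72 h 30 fell and 7 rose, where 18.6% of all genes tested fell and 25.3% rose. At 24 h 3 of the further genes fell and 1 rose, where 3.18% of all genes tested fell and 8.12% rose. The median log2 difference of the further genes was -0.19 after 24 h and -0.59 after both 48 h and 72 h. Without replicate 1 at 24 h, 15 of them fell and 9 rose at 24 h with a median of -0.03, where 8.94% of all genes tested fell and 16.1% rose. At 48 h 42 of the further genes then fell and 7 rose (24% and 32.9% of all genes tested). At 72 h 46 of the further genes fell and 7 rose (28.1% and 34.2%). The largest falls at 48 h were Msh6, of mismatch repair (-1.88 ± 0.31), Hells, a chromatin remodeller (-1.55 ± 0.55), and Ticrr, a firing factor (-1.42 ± 0.25), and at 72 h they were Msh6 (-2.08 ± 0.31), Ticrr (-1.90 ± 0.25) and Chtf18, of an alternative clamp loader (-1.76 ± 0.36).

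The largest rises among these further genes were regulators and a mitochondrial enzyme. At 48 h they were Rb1, the retinoblastoma protein that restrains E2F factors (2.30 ± 0.45), E2f6, a repressive E2F factor (1.01 ± 0.23), and Tk2, the mitochondrial thymidine kinase (0.99 ± 0.19). At 72 h they were Rb1 (2.20 ± 0.45), E2f6 (1.29 ± 0.23) and Tfdp2, an E2F dimerisation partner (1.26 ± 0.46). In limma the adjusted p was 0.00162 for Rb1 at 48 h and 0.0413 for Tfdp2 at 72 h.

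Of 33 tested mitosis genes 16 fell at 48 h and 20 at 72 h, where 14% and 18.6% of all genes tested fell. The mitosis genes had medians of -0.90 and -1.13 at these times, beside -0.84 and -1.03 for the replication genes. At 24 h 0 mitosis genes passed limma in either direction, where 3.18% of all genes tested fell and 8.12% rose. At an unadjusted p under 0.05 in limma, 1 mitosis gene was lower at 24 h. Without replicate 1 at 24 h, 1 mitosis gene fell at 24 h (8.94% of all genes tested), 30 at 48 h (24%) and 31 at 72 h (28.1%). The median of the mitosis genes at 24 h was then -0.03, against -0.34 with that array. Of 17 genes of cell cycle exit, 9 rose and 1 fell at 24 h, 13 rose and 2 fell at 48 h, and 10 rose and 2 fell at 72 h. Of all genes tested, 8.12% rose and 3.18% fell at 24 h, 22.6% and 14% at 48 h, and 25.3% and 18.6% at 72 h. Without replicate 1 at 24 h, 11 exit genes rose and 2 fell at 24 h, 13 rose and 2 fell at 48 h, and 12 rose and 2 fell at 72 h. Of all genes tested, 16.1% then rose and 8.94% fell at 24 h, 32.9% and 24% at 48 h, and 34.2% and 28.1% at 72 h. Among the genes of cell cycle exit Cdkn1c, the Cdk inhibitor p57, rose by 2.69 ± 0.36 at 24 h (2.52 ± 0.36 without replicate 1), 2.94 ± 0.36 at 48 h and 2.58 ± 0.36 at 72 h. Ccng2, an atypical cyclin linked to cell cycle exit, rose by 2.70 ± 0.24 at 48 h and 2.63 ± 0.24 at 72 h. A difference between these lists and the replication genes was not tested.

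The direction of the replication genes was alike over their probe sets. The 37 genes had 79 probe sets, and 25 genes had more than 1 that was bright, with 33 further bright ones. Of these 33, 32 had the sign of the probe set used at 48 h, all but 1 of Slbp, and 30 did at 72 h, all but 1 each of Cdc45, E2f1 and Slbp. A single probe set carries the value of 10 genes. Probe sets of 1 gene share the RNA of the same arrays and are not replicates.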

How the data were processed

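Per the labels' protocols, Trizol was used to isolate RNA and the arrays were hybridised with biotinylated cRNA. The deposited values are linear MAS5 intensity signals of each probe set and array, as the submitters' processing notes name that algorithm; the sources used here do not give its version or settings. The 2% trimmed mean was 150 on each array and the median 19.5 to 32.8. Of 45101 probe sets 64 were controls, and 34945 had 1 symbol in the platform annotation, 932 several and 9160 none. All 37 symbols matched RefSeq (GRCm38.p6).

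Signals were transformed as log2(signal + 16), which understates the change of dim genes. A gene was tested where its probe set exceeded its array's median on all 3 arrays of any group. One model of 4 groups over 12 arrays was fitted in R 4.3.3 by the functions lmFit, contrasts.fit and eBayes (with a trend) of limma 3.58.1, and its script was tested on simulated data. The simulated arrays were drawn independently, with none that stood apart, so they do not cover these features of the real arrays. Tests were two-sided, with 5 contrasts, Benjamini-Hochberg adjustment over 11806 genes and a threshold of 0.05. Differences are later minus earlier or induced minus uninduced, ± SE, n = 3 each. The number of arrays limits the precision. A probe set was called bright where it exceeded its array's median on at least 3 arrays.

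The genes and lists were chosen with earlier results of these data known. Values of every array are given for the largest fall and largest rise of each role at 48 h or 72 h and for genes that rose; Mcm5, Gins4, Pcna, Rfc3 and Pola1 were added after their values were seen. From other lists the 3 largest called changes each way could be named. Promoters were searched as text. Alternatives were the pseudocount, filter, normalization, probe set rule, array weights, arrays fitted, replicate number as a block, and each array left out. Same-numbered arrays deviated together, with correlations across genes of 0.156 to 0.157 (24 h with uninduced), 0.145 to 0.200 (48 h with uninduced), 0.135 to 0.429 (48 h with 24 h) and 0.230 to 0.577 (72 h with 48 h). For 72 h with uninduced they were 0.0787 to 0.152, and for 72 h with 24 h 0.0308 to 0.263. Arrays of unlike number in different groups ran from -0.479 to 0.322. The main model takes no account of the numbers, and a fit with them as a block is given beside it. The labels do not state what a number shares.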

Additional observations from a re-analysis of the deposited data

How the results depend on the processing

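The calls at 48 h and 72 h kept their direction in every alternative, and 13 of the 22 genes lower at 48 h and 16 of the 26 lower at 72 h passed in all 23 settings run, against 2 of 12 for 48 h against 24 h and 0 of 2 at 24 h. The same count was not made over all genes tested, so whether calls of other genes held as often is not known. With each array left out in turn, 14 to 30 genes passed at 48 h, 18 to 30 at 72 h, 2 to 6 at 24 h, 4 to 22 for 48 h against 24 h and 0 to 1 for 72 h against 48 h. The highest value came without replicate 1 at 24 h each time. Of all genes tested, 56.9% then passed at 48 h, 62.3% at 72 h and 25.1% at 24 h. For 48 h against 24 h 25.5% of them did, and for 72 h against 48 h 4.11%. The lowest at 48 h came without replicate 2 at 48 h (27.3% of all genes tested). At 72 h it came without replicate 1 at 72 h (34.5%), and for 48 h against 24 h without replicate 1 at 48 h (10.1%). Where 2 genes passed at 24 h, 5.94% to 10.6% of all genes tested did. Without replicate 3 at 24 h, 4 genes passed at 24 h, where 12.2% of all genes tested did.

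With limma array weights, whose estimation stopped before it converged, 5 genes passed at 24 h, 21 for 48 h against 24 h and 7 for 72 h against 48 h, all lower, where 5.68%, 9.33% and 11% of all genes tested were lower and 16.2%, 22.8% and 21.6% passed in either direction. With these weights 30 genes were lower and 1 higher at 48 h, and 32 lower and 1 higher at 72 h. Of all genes tested, 58.9% and 68.7% passed at these times. With only the 6 arrays of the groups compared, 0 passed at 24 h, 3 for 48 h against 24 h and 1 for 72 h against 48 h, where 3.09%, 8.72% and 3.72% of all genes tested passed. With these 6 arrays 31 passed at 48 h (54.9%), 30 lower and 1 higher, and 29 at 72 h (59%), all lower. Orc1 and Gins4 then had limma adjusted p of 0.0516 and 0.107 at 24 h. With the replicate block, 2, 23, 26, 13 and 0 genes passed at 24 h, 48 h, 72 h, 48 h against 24 h and 72 h against 48 h, adding Tk1 at 48 h and Gins1 for 48 h against 24 h and losing none. With the replicate block and replicate 1 at 24 h left out together, chosen after seeing the data, 11 passed at 24 h, 22 for 48 h against 24 h and 1 for 72 h against 48 h, all lower, where 11.8%, 14.1% and 3.79% of all genes tested were lower and 31.2%, 30.8% and 7.93% passed in either direction. In that fit 30 genes were lower and 1 higher at 48 h, and 31 lower at 72 h, where 62.8% and 67.6% of all genes tested passed.

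For 48 h against 24 h, Pola1 had a log2 difference of 0.12 with all arrays, of -0.85 with array weights and of -0.89 with the replicate block and replicate 1 at 24 h left out. With each array left out in turn it ran from -0.88 (without replicate 1 at 24 h) to 0.64 (without replicate 3 at 24 h). Fen1 at 24 h was 0.14 with all arrays and -0.41 with the replicate block and replicate 1 at 24 h left out.

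Between-array scaling moved the median of all genes at 48 h from 0.12 to -0.03 with quantile normalization and -0.02 with median centring, and at 72 h from 0.09 to -0.08 and -0.10. Of the replication genes 19 and 23 were then lower at 48 h, where 16.4% and 16% of all genes tested were lower. At 72 h 23 and 26 of the replication genes were lower, where 22.3% and 22.8% of all genes tested were. The share of all calls that were lower was 42.4% at 72 h, against 51.2% and 52.9% under these scalings, and 42.3% for 48 h against 24 h, against 54.4% and 54.2%. Dim probe sets, such as that of Tyms, have the least signal over background.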
